A study of Mus musculus with 11 samples.

Results

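The proteasome genes measured here are the 48 mouse genes, of 21210 with a probe set of their own, whose symbol is Psma, Psmb, Psmc, Psmd, Psme or Psmg followed by a digit. They were chosen by symbol, from 55 probe sets that the array's annotation gives to 1 such gene, and where a gene had several, the one brightest on average across the 11 arrays was taken. By the place of the protein in the particle they are 8 core alpha genes, 11 core beta genes, 9 base genes, 8 lid genes, 4 activator genes and 7 assembly genes. The remaining one, Psmc3ip, encodes a meiotic recombination protein named for binding Psmc3 and is no part of the proteasome. One further probe set, which names Psma3 along with another gene, was not used.

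The arrays read RNA of late 2-cell mouse embryos of mixed 129/Sv and C57BL/6J background, each from a pool of 40. Eggs came from females of 5 to 10 weeks and were fertilized in vitro by wild-type sperm of males of 10 to 16 weeks, so that every embryo also received a paternal genome with intact Ring1 and Rnf2. Control embryos (3 arrays) came from eggs without Ring1 that kept Rnf2, and mutant embryos (3 arrays) from eggs without both. Ring1 and Rnf2 are the E3 ubiquitin ligases of Polycomb repressive complex 1, so the control shares the loss of Ring1 with the mutant. In both other groups the same kinds of embryo were kept in 24 µg/ml α-amanitin, which blocks RNA polymerase II, from 6 h after fertilization to harvest at 35 h (3 control arrays and 2 mutant arrays). The harvest time of the untreated embryos and the way Rnf2 was removed from the eggs are not stated in the labels used here. Embryos of several mice were pooled, and replicates are biological per the labels. Because a pool was read, fewer embryos that express a gene and less of its RNA per embryo cannot be told apart.

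The proteasome degrades proteins that carry ubiquitin chains. Its core particle is a stack of rings built of alpha subunits outside and beta subunits inside, and 3 of the beta subunits, Psmb5, Psmb6 and Psmb7, hold the cutting sites. The regulatory particle caps the core: its base holds the ATPases Psmc1 to Psmc6, which unfold the substrate, and its lid holds Psmd14, which removes ubiquitin. Activators of the Psme family open the core without ATP, and chaperones such as the Psmg proteins, Psmd5, Psmd9 and Psmd10 help assemble the particle and leave it. The 2-cell embryo starts with RNA stored by the egg, and in the mouse the major wave of its own transcription comes at this stage, when many stored proteins and RNAs are cleared.

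Promoters of 4 proteasome genes are shown because these genes stand for the different patterns described next: a catalytic core subunit, the lid's deubiquitinase, an assembly chaperone and an activator. Each line gives the 250 bases before the annotated start, 5′ to 3′ on the gene's strand, from RefSeq on GRCm38.p6. Capitals mark TGACNNNGC, the core of the antioxidant response element, and CTTCCG or its reverse complement, a core of sites for factors of the ETS family.
Psmb5 (chr14:54617996-54618245, reverse strand): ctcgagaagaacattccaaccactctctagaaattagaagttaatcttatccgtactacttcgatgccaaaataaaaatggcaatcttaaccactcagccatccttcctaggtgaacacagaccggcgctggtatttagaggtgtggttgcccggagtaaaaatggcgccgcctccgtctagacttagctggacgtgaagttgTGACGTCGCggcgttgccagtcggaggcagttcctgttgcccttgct
Psmd14 (chr2:61711444-61711693, forward strand): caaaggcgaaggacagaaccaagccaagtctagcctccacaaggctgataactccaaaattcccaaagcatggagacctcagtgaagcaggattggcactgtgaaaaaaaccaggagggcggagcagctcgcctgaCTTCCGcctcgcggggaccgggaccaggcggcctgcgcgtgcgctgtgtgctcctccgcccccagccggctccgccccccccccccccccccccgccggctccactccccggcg
Psmd10 (chrX:140956712-140956961, reverse strand): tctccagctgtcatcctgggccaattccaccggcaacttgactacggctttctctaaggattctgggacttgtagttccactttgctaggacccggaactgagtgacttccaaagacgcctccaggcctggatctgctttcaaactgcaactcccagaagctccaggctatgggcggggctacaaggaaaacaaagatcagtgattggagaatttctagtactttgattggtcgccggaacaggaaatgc
Psme3 (chr11:101315963-101316212, forward strand): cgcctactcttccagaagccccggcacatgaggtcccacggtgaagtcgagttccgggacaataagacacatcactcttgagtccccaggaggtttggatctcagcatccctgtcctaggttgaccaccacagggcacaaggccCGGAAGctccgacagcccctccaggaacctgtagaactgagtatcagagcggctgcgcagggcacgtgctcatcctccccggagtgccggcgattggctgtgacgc
Counted from the start, the antioxidant response element of Psmb5 begins at base -47 and the ETS cores of Psmd14 and Psme3 at -114 and -106, and Psmd10 holds neither in this stretch. A match of letters is a description and no evidence that a factor binds there.

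The labels were checked first. Rnf2 read 6.84, 6.59 and 6.70 in the untreated control arrays and 5.00, 5.17 and 5.08 in the untreated mutant arrays, a difference of -1.63 ± 0.11 (log2, limma's standard error, adjusted p = 7.97e-06). With α-amanitin the Rnf2 difference was -1.86 ± 0.13 (adjusted p = 2.99e-05 by limma). For the treatment, 6 markers of the embryo's own transcription at the 2-cell stage were read. Without α-amanitin 5 were higher and 0 lower in control embryos (median difference 1.68), and 4 and 0 in mutant embryos (1.46). Of all genes, 19.2% and 2.59% were higher in these comparisons. Between the untreated genotypes 2 of the 6 were higher and 2 lower in the mutant (all genes 8.57% and 16.5%). All 9 egg and early-embryo markers read had means above 6 in each group, and the 6 immune markers read stayed at or below 5.33 on every array. The 8 sperm markers reached 5.56 at most, and 1 of 11 cumulus and granulosa markers had a group mean above 6, in untreated control embryos. Of these 11, 2 were called higher and 1 lower in the untreated mutant (all genes 8.57% and 16.5%). Ptgs2 read 4.44, 4.89 and 4.34 in untreated control and 5.71, 6.00 and 5.86 in untreated mutant embryos. Amhr2 read 6.87, 6.58 and 6.43 in the former and 5.02, 4.76 and 5.06 in the latter. Egg markers moved with the groups: 8 of 9 were higher and 1 lower in the untreated mutant (all genes 8.57% and 16.5%). In control embryos 8 of 9 were lower and 1 higher without α-amanitin than with it (all genes 14.1% and 19.2%). The part of the egg markers in the results on the proteasome genes was not tested. The 2 α-amanitin-treated mutant arrays differed: the second had 14.2% of its probe sets above a log2 value of 6, the first 11.0%. With 2 arrays it cannot be told which of them departs. For the comparisons that use this pair, values without its first and without its second array stand beside the counts of calls and beside the genes described as called.

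**Figure D1:**
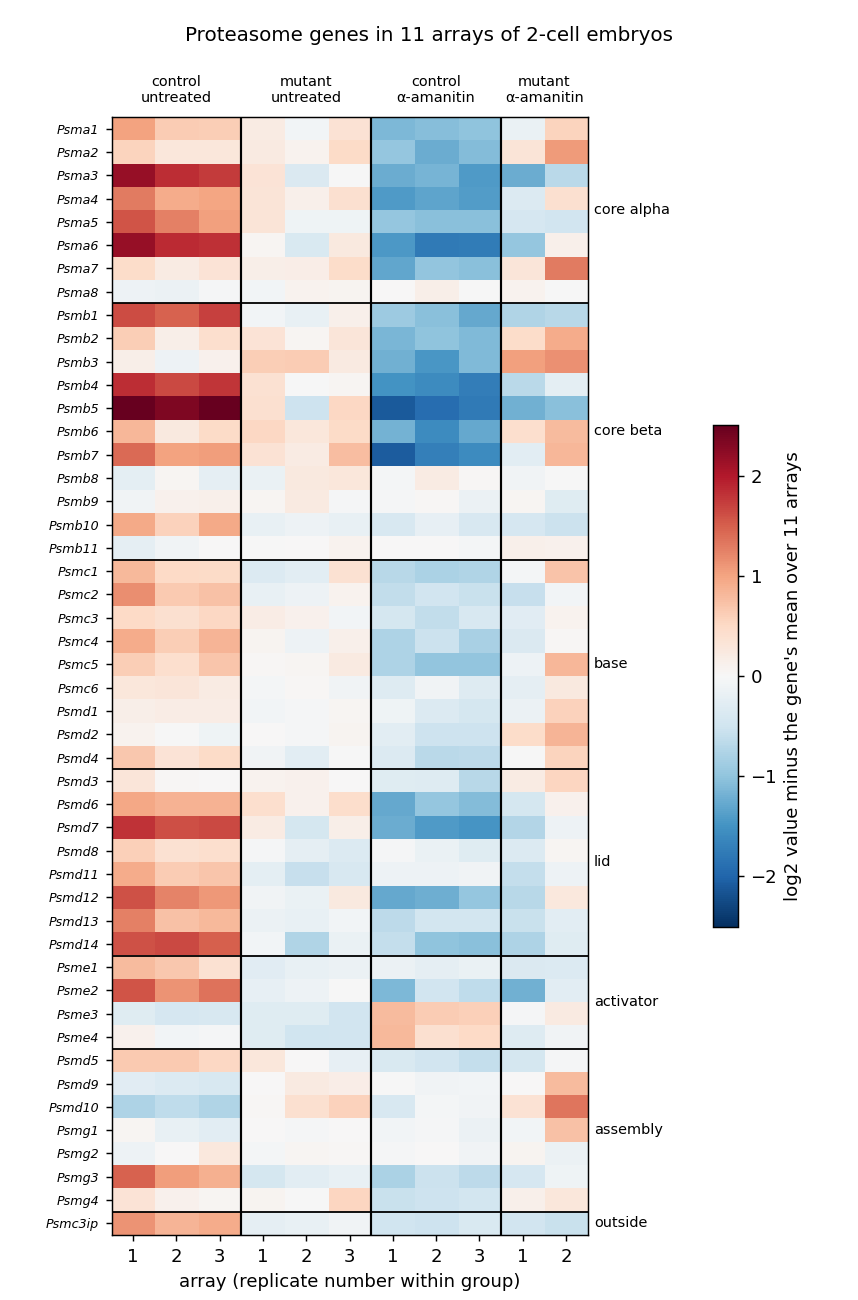
Log2 values of the 48 proteasome genes (rows, by subcomplex) on the 11 arrays (columns, by group), each minus the gene's mean over all arrays, with red above and blue below that mean. Most core, base and lid genes are red in untreated control embryos and blue in treated control embryos, while Psme3 and Psme4 are red in treated control embryos.

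Values are log2 intensities, so a difference of 1 is 2-fold, and a gene counted as changed at limma's adjusted p below 0.05 over all 34760 probe sets. Over the 48 genes, the median log2 value was 6.76, 6.59 and 6.63 on the untreated control arrays and 6.12, 5.99 and 6.19 on the untreated mutant arrays. It was 5.32, 5.36 and 5.29 on the treated control arrays, and 5.76 and 6.55 on the treated mutant arrays. The untreated control arrays were the highest and the treated control arrays the lowest, and the treated mutant arrays lay apart from each other, one below and one above the untreated mutant arrays.

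In control embryos 37 of the 48 proteasome genes were higher without α-amanitin than with it, 2 were lower and 9 did not pass the test. Over all 21210 genes, 19.2% were higher and 14.1% lower. The median difference of the 48 genes was 1.37 on the log2 scale, against -0.04 over all genes, and 29 genes were higher by at least 2-fold. With the arrays quantile-normalized, the median was 0.93, and 34 genes were higher and 5 lower. Of the 31 standard subunits of the 26S particle (the core with its base and lid, without tissue-specific beta and alpha subunits), 30 rose, with a median of 1.49. Psmd1, a large scaffold subunit of the base, was the remaining one, at 0.46 ± 0.16 (adjusted p = 0.0513 by limma). For all 31, each untreated control array lay above each treated control array, and this held for 38 of the 48, with the reverse for 5 (23.5% and 23.8% of all genes). Among the brighter genes, defined as those in the brighter 50% of probe sets, which hold 44 of the 48, 32.1% were higher and 22.6% lower.

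In mutant embryos the same comparison called 3 of the 48 genes higher without α-amanitin and 2 lower, where 2.59% and 1.09% of all genes were called (4.41% and 1.87% of the brighter genes). The arrays did not overlap for 10 genes in the first direction and 6 in the second (all genes 11.7% and 16.3%). The median difference was 0.02, against -0.03 over all genes. The count depends on the 2 treated arrays: without the first of them 0 were higher and 9 lower, and without the second 3 were higher and 0 lower. Without the first or without the third untreated mutant array limma called 0, where 12 and 18 had an unadjusted p below 0.05. Across the 48 genes the differences in mutant and in control embryos, which share no array, had a Pearson r of 0.67 (Spearman 0.61). Over all genes r was 0.659 (Spearman 0.464), a description across genes that are not independent of each other. The sign was the same for 30 of the 48 genes and for 13793 of all 21210. The treatment difference in mutant embryos minus the one in control embryos, called the interaction here, was called negative for 35 of the 48 genes and positive for 1 (all genes 13.5% and 4.13%, brighter genes 23.1% and 6.96%), with a median of -1.26. Without the first treated mutant array the median was -1.46 and 38 were negative, and without the second it was -1.09 and 32 were negative and 1 positive. With the arrays quantile-normalized, the median of the interaction was -0.91. By construction the interaction also equals the genotype difference without α-amanitin minus that with it.

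**Figure D2:**
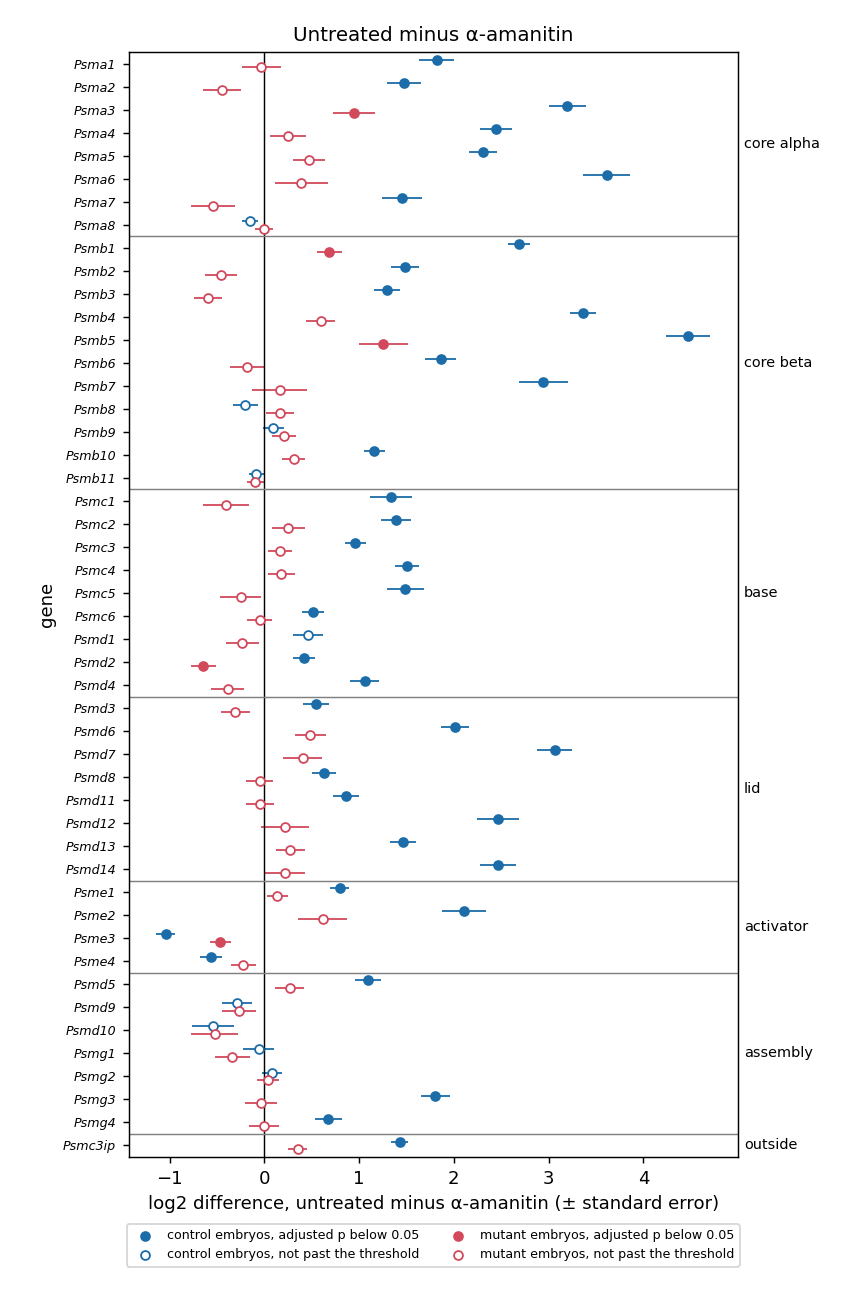
Log2 difference, untreated minus α-amanitin, with limma's standard error for each of the 48 proteasome genes in control (blue) and mutant (red) embryos, and filled points where the adjusted p was below 0.05. Control values reach 4.47 for Psmb5, and most mutant values lie close to 0.

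Without α-amanitin, 26 of the 48 genes were lower in mutant than in control embryos, 2 were higher and 20 did not pass, where 16.5% and 8.57% of all genes were lower and higher. Of the brighter genes, 27.9% were lower and 13.6% higher. All mutant arrays lay below the control arrays for 31 of the 48 and above them for 3 (all genes 22.9% and 18.3%). The median was -0.58 against 0.01 over all genes. After quantile normalization of the arrays, the count was 19 lower and 8 higher and the median -0.20. With α-amanitin the genotype difference went the other way: 21 genes were higher in the mutant, 2 were lower and 25 did not pass, where 6.95% and 3.99% of all genes were higher and lower (11.8% and 6.83% of the brighter genes). Both mutant arrays lay above every control array for 28 genes and below for 5 (all genes 19.5% and 13.8%). Its median was 0.48 against 0.02 over all genes. Without the second treated mutant array, 12 were higher and 2 lower with a median of 0.28 and 9 of the 23 calls were lost, and without the first, 26 were higher and 1 lower with a median of 0.77.

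Most of the 48 genes shared 1 of 3 sets of calls. The first group of 13 genes was lower in the untreated mutant and did not pass with α-amanitin, among them Psma5, Psmc2, Psmd14, Psme2 and Psmg3. In this group Psmb10, Psme2 and Psmc3ip read near the median of the probe-set means (4.49) on the treated arrays of both genotypes. A decrease in either treated genotype could hardly be seen for these genes. The second group of 9, with Psma6, Psmb4, Psmd7 and Psmd12, was lower in the untreated mutant and higher in the treated mutant. The third group of 8, with Psma2, Psma7, Psmb2 and Psmb6, did not pass in untreated embryos and was higher in the treated mutant. A further 8 genes passed in no comparison. All 30 genes of the 3 sets were higher in untreated than in treated control embryos and had a negative interaction. These comparisons share arrays with the genotype comparisons, so this agreement is in part built in. The genotype calls over the 48 genes depended on the fit: with only the groups compared, 12 of the 23 with α-amanitin were lost. After quantile normalization 6 of the 28 without α-amanitin were lost and 1 changed sign. These sets rest on the treated mutant arrays: without the first of them 12, 9 and 3 of these genes kept their set of calls, and without the second 11, 2 and 4. Across the 48 genes the genotype differences without and with α-amanitin, which share no array, had a Pearson r of 0.105 (Spearman 0.043), and 12 had the same sign. Over all genes r was 0.077 (Spearman 0.077), and 11132 of 21210 had the same sign.

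**Figure D3:**
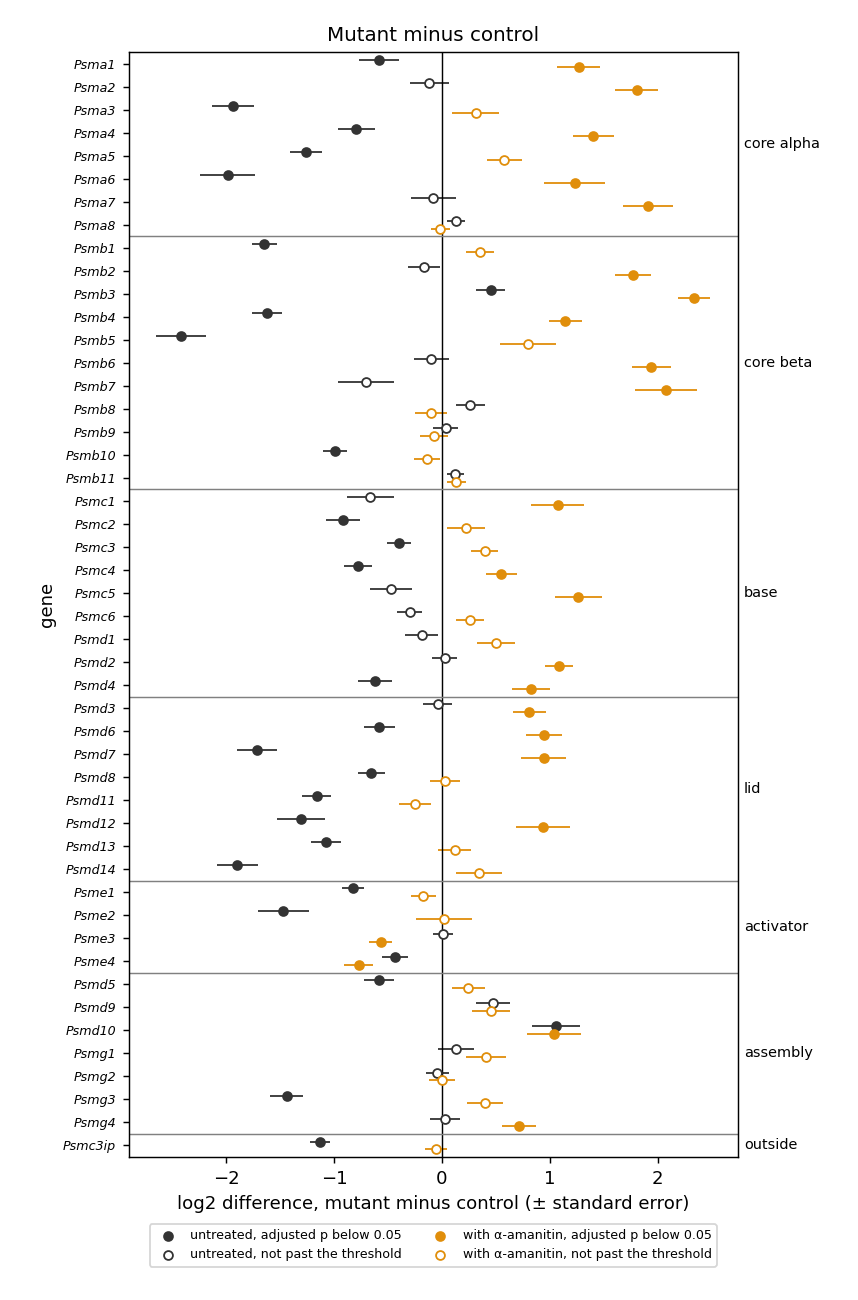
Log2 difference, mutant minus control, with limma's standard error for each of the 48 proteasome genes without (black) and with (orange) α-amanitin, and filled points where the adjusted p was below 0.05. Lid genes lie left of 0 without α-amanitin, several core genes lie close to 0 without it and close to 2 with it, and Psmd10 lies at about 1 in both.

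The alpha subunits form the outer rings of the core and its gate. Of 8 genes, 7 were higher in untreated than in treated control embryos (median 2.06), against 32.1% of the brighter genes. In the untreated mutant 5 were lower (median -0.69, brighter genes 27.9%). In the treated mutant 5 were higher (median 1.25, brighter genes 11.8%). Without the first treated mutant array 5 were higher there (median 1.70) and without the second 4 (median 0.80). Psma6 read 8.77, 8.47 and 8.42 without and 5.15, 4.83 and 4.85 with α-amanitin in control embryos, and 6.64, 6.21 and 6.84 without and 5.63 and 6.72 with it in mutant embryos. The untreated control arrays were above all others, and treated mutant arrays overlapped with untreated mutant arrays. The Psma6 difference of untreated control over treated control was 3.61 ± 0.25, a 12.2-fold difference (adjusted p = 1.07e-06 by limma). In the untreated mutant it was lower by 3.97-fold (-1.99 ± 0.25, adjusted p = 0.000198), and in the treated mutant higher by 2.35-fold (1.23 ± 0.28, adjusted p = 0.0203 by limma). The last value lost its call without the second treated mutant array, at 0.69, and was 1.78 without the first.

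Psma3 behaved like Psma6 in control embryos. It read 9.66, 9.34 and 9.23 without and 6.25, 6.32 and 6.06 with α-amanitin in control embryos, and 7.82, 7.12 and 7.46 without and 6.24 and 6.81 with it in mutant embryos. Here the treated arrays of both genotypes overlapped, and Psma3 was among the 3 genes called higher without α-amanitin in mutant embryos (0.95 ± 0.22, adjusted p = 0.043 by limma). That call was lost in 15 of 20 alternative fits, among them the one without the first treated mutant array (0.66). Both other probe sets of Psma3 also read lower in the untreated mutant, by -2.58 and -1.18, but neither passed for the treatment in mutant embryos (-0.11 and 0.43).

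Psma2 and Psma7 showed another pattern. Psma7 read 7.64, 7.39 and 7.52 in control and 7.32, 7.34 and 7.64 in mutant embryos without α-amanitin, which overlap. With it the values were 5.88, 6.19 and 6.13 in control and 7.48 and 8.47 in mutant embryos, so that the treated control arrays stood alone at the low end. The difference between the genotypes was -0.08 ± 0.21 without and 1.91 ± 0.23 with α-amanitin (adjusted p = 0.862 and 0.000722 by limma). For Psma2 the same differences were -0.12 and 1.80. Both genes stayed called with α-amanitin without either treated mutant array, Psma7 at 2.40 without the first and 1.42 without the second, and Psma2 at 2.17 and 1.43. Psma8, a testis subunit that replaces Psma7 there, stayed between 4.04 and 4.33 on every array, below the median of the probe-set means of 4.49, and no comparison called it.

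Among the 7 standard beta subunits, all rose without α-amanitin in control embryos, with a median of 2.69, against 32.1% of the brighter genes. Psmb5, the subunit with chymotrypsin-like activity, read 10.45, 10.09 and 10.36 without and 5.64, 5.85 and 5.99 with α-amanitin in control embryos, and 8.15, 7.23 and 8.27 without and 6.54 and 6.71 with it in mutant embryos. No 2 groups overlapped, and the order was untreated control, untreated mutant, treated mutant, treated control. Of the 48 genes it had the largest difference between untreated and treated control embryos, 22.2-fold (4.47 ± 0.23, adjusted p = 1.82e-07 by limma). The treated genotypes differed by 0.80 ± 0.26, which did not pass (adjusted p = 0.0929 by limma), though their arrays did not overlap. In mutant embryos the treatment difference was 1.26 ± 0.26 (adjusted p = 0.0259 by limma). This call was lost in 7 of 20 alternative fits, including those with array weights (adjusted p = 0.0837), with only the groups compared (0.193), and without the first or the second treated mutant array (0.0809 and 0.0901).

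Psmb4, a structural subunit, read 9.26, 9.07 and 9.21 without and 5.92, 5.85 and 5.69 with α-amanitin in control embryos, and 7.81, 7.40 and 7.46 without and 6.75 and 7.18 with it in mutant embryos. Its groups did not overlap either, in the same order as for Psmb5. The genotype difference was -1.62 ± 0.14 without α-amanitin and 1.14 ± 0.15 with it (adjusted p = 2.06e-05 and 0.0012 by limma). With α-amanitin it stayed called at 1.36 without the first and at 0.93 without the second treated mutant array.

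Psmb2, Psmb3 and Psmb6 were not called lower in the untreated mutant. Psmb3, another structural subunit, read 6.32, 6.05 and 6.29 in control and 6.79, 6.82 and 6.40 in mutant embryos without α-amanitin. With α-amanitin it read 4.98, 4.73 and 5.07 in control and 7.20 and 7.33 in mutant embryos. The treated mutant arrays were the highest of all and the treated control arrays the lowest. It was 5.06-fold higher in the treated mutant (2.34 ± 0.15, adjusted p = 2e-05 by limma), the largest such difference of the 48 genes, and its second probe set gave 1.97. It was 2.40 without the first and 2.27 without the second treated mutant array. Without α-amanitin Psmb3 was higher in the mutant by 0.45 ± 0.13 (adjusted p = 0.0354), the sole core subunit called higher there. That call was kept in 11 of 20 alternative fits, and the second probe set of Psmb3 gave 0.81 (adjusted p = 0.00125 by limma). Psmb6, the caspase-like subunit, differed by -0.10 ± 0.16 without and 1.94 ± 0.18 with α-amanitin, and Psmb7, the trypsin-like subunit, by -0.71 ± 0.26 and 2.08 ± 0.29. Neither passed without α-amanitin (adjusted p = 0.769 and 0.0868 by limma), and both passed with it (0.000143 and 0.0015). Without the first treated mutant array these were 2.13 for Psmb6 and 2.62 for Psmb7, and without the second 1.75 and 1.53, all called.

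**Figure D4:**
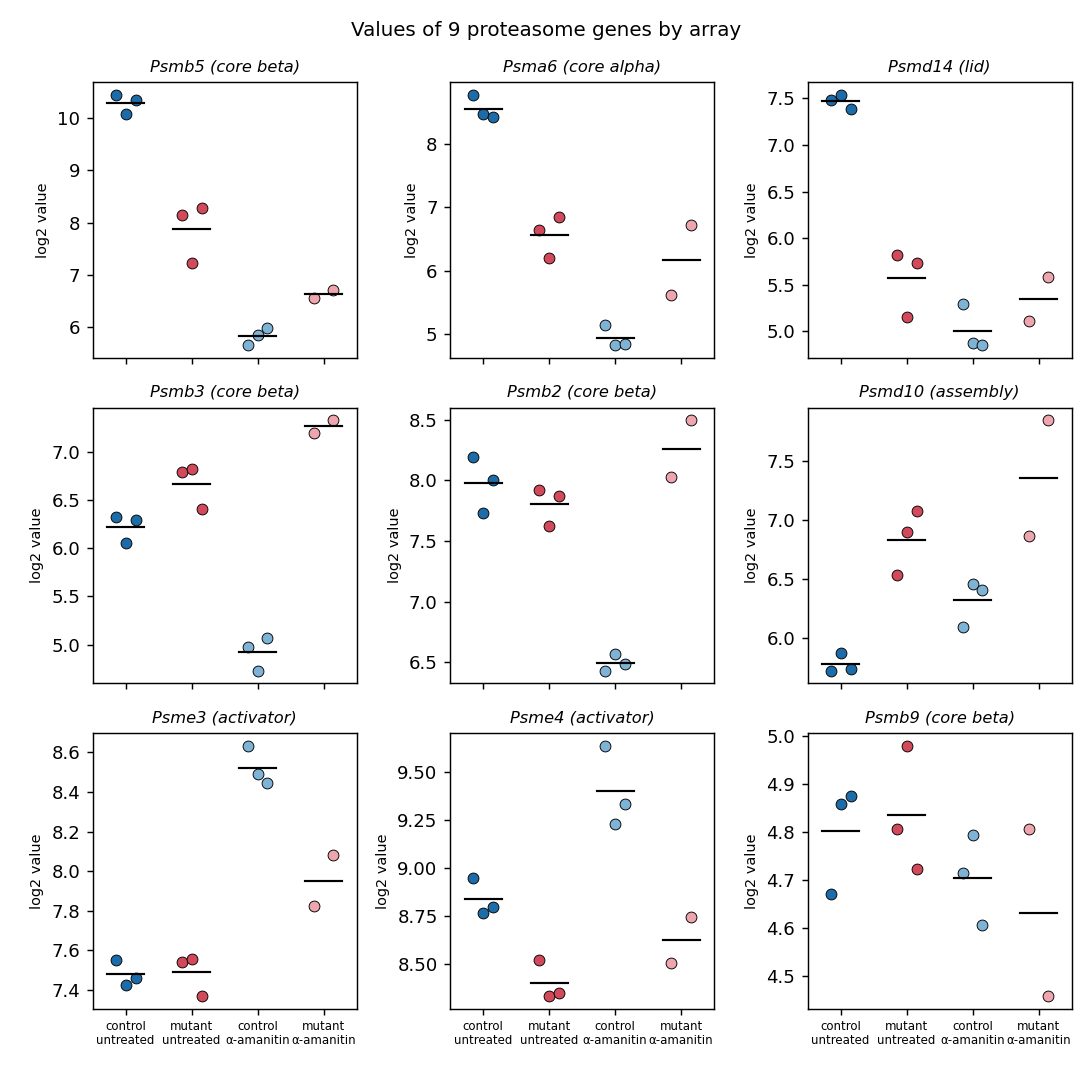
Log2 values of 9 proteasome genes on each array, by group, with a bar at the group mean and a separate vertical scale in each panel. Psmb5 has 4 separate groups, Psmb3 and Psmb2 are low in treated control embryos only, Psme3 and Psme4 are highest in treated control embryos, and Psmb9 varies within 0.6 over all arrays.

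The immunoproteasome replaces the cutting subunits by Psmb8, Psmb9 and Psmb10 and is best known from immune cells and cells that received interferon. Psmb8 stayed between 4.08 and 4.61 and Psmb9 between 4.46 and 4.98 on the 11 arrays, and no comparison called either. Psmb10 read 5.99, 5.62 and 5.99 in untreated control embryos and between 4.51 and 4.91 on the 8 other arrays. The untreated control arrays stood alone for Psmb10, and it was 1.99-fold lower in the untreated mutant (-0.99 ± 0.11, adjusted p = 8.41e-05 by limma). Psmb11, the subunit of the thymus proteasome, stayed between 4.10 and 4.45 and was never called. Psmb8 and Psmb9 lie close to each other on chromosome 17, with 1 coding gene, Tap1, between them, and Psmb11 is the neighbour of Psmb5 on chromosome 14.

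The base holds the ATPases and their scaffolds. Of its 9 genes, 8 were higher in untreated than in treated control embryos (median 1.06), against 32.1% of the brighter genes. In the untreated mutant 4 were lower (median -0.47, brighter genes 27.9%). In the treated mutant 5 were higher (median 0.55, brighter genes 11.8%). Without the first treated mutant array 8 were higher there (median 0.87), and without the second 2 (median 0.35). Psmc4, one of the ATPases, read 6.32, 6.00 and 6.24 without and 4.61, 4.85 and 4.59 with α-amanitin in control embryos, and 5.46, 5.27 and 5.51 without and 5.04 and 5.43 with it in mutant embryos. Untreated control arrays were the highest, treated control arrays the lowest, and the mutant arrays of both treatments overlapped between them. The Psmc4 genotype difference was -0.78 ± 0.13 without and 0.55 ± 0.15 with α-amanitin (adjusted p = 0.00133 and 0.0401 by limma), and the second lost its call without the second treated mutant array, at 0.35, and was 0.75 without the first. Psmc2 was lower in the untreated mutant by -0.92 ± 0.16 and read 0.22 ± 0.18 with α-amanitin (adjusted p = 0.00154 and 0.631 by limma).

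Psmd2, a scaffold of the base that receives ubiquitin-like shuttle proteins, read 6.99, 6.90 and 6.80 in control and 6.91, 6.88 and 6.97 in mutant embryos without α-amanitin. With it the values were 6.65, 6.39 and 6.38 in control and 7.36 and 7.76 in mutant embryos, the highest of all groups. The genotype difference with α-amanitin was 1.08, with 1.28 without the first and 0.88 without the second treated mutant array, called in both. In mutant embryos Psmd2 was called lower without α-amanitin than with it (-0.64 ± 0.13, adjusted p = 0.0233 by limma). That call was lost in 8 of 20 alternative fits, including a trend prior, array weights, only the groups compared (adjusted p = 0.146) and leaving out the second treated mutant array (-0.44, adjusted p = 0.152 by limma). Leaving out the first gave -0.84 for Psmd2, and other core and base genes were then called lower too, 2 of the core alpha genes and 3 of the base in all. Its rise in untreated over treated control embryos, 0.42 ± 0.12, was -0.01 after quantile normalization. Psmd4, a ubiquitin receptor, was lower in the untreated mutant (-0.62 ± 0.16) and higher in the treated mutant (0.83 ± 0.18, adjusted p = 0.0164 and 0.0142 by limma). Without the second treated mutant array the latter was 0.54 and no longer called, and without the first it was 1.12.

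Of the 8 lid genes, 7 were lower in the untreated mutant (median -1.12) and all 8 were higher in untreated than in treated control embryos (median 1.74). Of the brighter genes 27.9% and 32.1% were called in these directions. Psmd14 read 7.49, 7.54 and 7.39 without and 5.29, 4.88 and 4.85 with α-amanitin in control embryos, and 5.82, 5.15 and 5.74 without and 5.11 and 5.58 with it in mutant embryos. The untreated control arrays stood alone at the top, and the other 3 groups overlapped. It was 3.73-fold lower in the untreated mutant (-1.90 ± 0.19, adjusted p = 4.77e-05 by limma), and with α-amanitin the difference was 0.34 ± 0.21 (adjusted p = 0.478).

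Psmd7, the partner of Psmd14 in the lid, read 8.97, 8.78 and 8.83 without and 5.94, 5.75 and 5.69 with α-amanitin in control embryos, and 7.38, 6.74 and 7.31 without and 6.44 and 7.03 with it in mutant embryos. The treated control arrays were the lowest. Its difference between the genotypes was -1.72 ± 0.18 without α-amanitin and 0.94 ± 0.21 with it (adjusted p = 7.26e-05 and 0.0165 by limma), and the second was 0.65 and not called without the second treated mutant array, and 1.24 without the first. Psmd11, Psmd12 and Psmd13 fell in the untreated mutant by 1.16, 1.31 and 1.08 on the log2 scale. Psmd3, the remaining lid gene, differed by -0.04 ± 0.13 (adjusted p = 0.898 by limma).

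The 4 activators split by family member. Psme1 and Psme2 form the activator that interferon induces, and they lie on chromosome 14 with 1 coding gene, Emc9, between them. Psme2 read 6.61, 6.16 and 6.39 without and 3.90, 4.56 and 4.39 with α-amanitin in control embryos, and 4.82, 4.90 and 5.03 without and 3.83 and 4.77 with it in mutant embryos. Untreated control arrays stood alone at the top. Psme2 was 2.77-fold lower and Psme1 1.77-fold lower in the untreated mutant (adjusted p = 0.000899 and 0.000167 by limma), and neither was called between the treated genotypes (0.02 and -0.17). A second probe set of Psme2 gave -0.78 on the log2 scale in the untreated mutant, against -1.47 for the one used. In mutant embryos the second passed for treatment (0.49, adjusted p = 0.0167 by limma), and the one used did not (0.62, adjusted p = 0.283).

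Psme3, a nuclear activator, and Psme4, an activator linked to the turnover of acetylated histones, went the other way with treatment. Psme3 read 7.55, 7.43 and 7.46 without and 8.63, 8.49 and 8.44 with α-amanitin in control embryos, and 7.54, 7.56 and 7.37 without and 7.82 and 8.08 with it in mutant embryos. The treated control arrays were above all others and the untreated genotypes overlapped. Psme3 was lower without than with α-amanitin in control embryos by -1.04 ± 0.10 and in mutant embryos by -0.46 ± 0.11 (adjusted p = 8.99e-06 and 0.0426 by limma). The call in mutant embryos was lost in 15 of 20 alternative fits, among them the one without the second treated mutant array (-0.33). It was the single gene of the 48 with a positive interaction (0.58 ± 0.14, adjusted p = 0.0204), which was 0.45 and not called without the first treated mutant array and 0.71 without the second.

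Psme4 read 8.95, 8.76 and 8.80 without and 9.64, 9.23 and 9.33 with α-amanitin in control embryos, and 8.52, 8.34 and 8.35 without and 8.50 and 8.75 with it in mutant embryos. Treated control arrays were again the highest. Psme4 was the only gene called lower in the mutant both without (-0.43 ± 0.12) and with α-amanitin (-0.77 ± 0.13, adjusted p = 0.0239 and 0.00467 by limma). The first of these was 0.04 and not called after quantile normalization. The second was -0.65 without the first and -0.89 without the second treated mutant array.

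**Figure D5:**
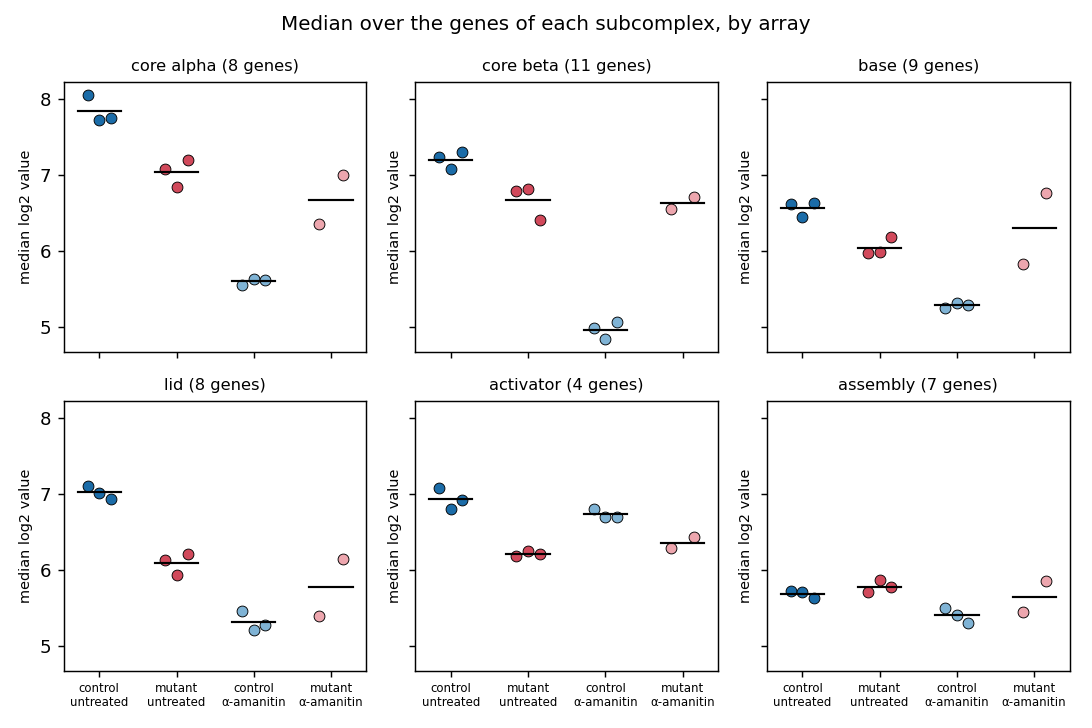
Median log2 value over the genes of each subcomplex on each array, by group, with a bar at the group mean. The group means of the core, base and lid medians are highest in untreated control and lowest in treated control embryos. Single treated mutant arrays go past them, the second above all untreated control arrays for the base (6.77) and the first below 1 treated control array for the lid (5.40 against 5.45), and the assembly medians lie between 5.3 and 5.9 on all arrays.

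Assembly factors did not move as 1 group. Psmd10, a chaperone of the base also known as gankyrin, read 5.72, 5.87 and 5.74 without and 6.09, 6.45 and 6.41 with α-amanitin in control embryos, and 6.53, 6.89 and 7.07 without and 6.87 and 7.84 with it in mutant embryos. In both treatments the mutant arrays lay above all control arrays. The Psmd10 difference was 1.05 ± 0.22 without and 1.04 ± 0.25 with α-amanitin (adjusted p = 0.00567 and 0.0259 by limma), and the second was 0.55 and not called without the second treated mutant array, and 1.53 without the first. Psmg3, which with Psmg4 helps build the alpha ring, read 6.78, 6.35 and 6.18 in untreated control and between 4.50 and 5.19 on the 8 other arrays. It was 2.71-fold lower in the untreated mutant (-1.44 ± 0.15, adjusted p = 6.68e-05 by limma), while Psmg4 differed by 0.03 ± 0.14. Psmd5, a further base chaperone, was lower in the untreated mutant by -0.58 ± 0.14 (adjusted p = 0.0105 by limma). Psmd9 read 0.47 ± 0.16 there (adjusted p = 0.06 by limma), and Psmg1 and Psmg2 were not called in any comparison. With α-amanitin the genotype difference was 0.71 for Psmg4 (adjusted p = 0.0174 by limma). It was 0.45 for Psmd9 and 0.41 for Psmg1, neither called. For Psmg4, Psmd9 and Psmg1 it was 0.79, 0.84 and 0.80 without the first treated mutant array. Without the second it was 0.63, 0.06 and 0.01.

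Psmc3ip, outside the particle, read 6.12, 5.85 and 5.92 in untreated control embryos and between 4.44 and 4.91 on the 8 other arrays. It was 2.19-fold lower in the untreated mutant (adjusted p = 1.58e-05 by limma). Together with the tissue-specific beta and alpha subunits, the activators and the assembly factors, the 17 members that are no standard subunit had 7 lower and 1 higher in the untreated mutant, with a median of 0.01. The 31 standard subunits had 19 lower and 1 higher, with a median of -0.67. Of all genes 16.5% were lower and 8.57% higher, and of the brighter genes 27.9% and 13.6%. The 17 include Psma8, Psmb8, Psmb11 and Psmg2, whose means over all arrays were 4.184, 4.335, 4.319 and 4.25. These lie below the median of the probe-set means (4.49), where a decrease could hardly be seen. The counts and medians of both sets are therefore no test of a difference between them.

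RefSeq promoter windows, 250 bases before to 50 after the start, were found for 40 of the 48 genes, as 43 windows. TGACNNNGC, searched on both strands, is the core of the element through which Nfe2l1 is known to drive proteasome genes when proteasome activity is low. It was in 6 of the 43 windows (14.0%), those of Psmb5, Psmb6, Psmc6, Psmd9, Psmd12 and Psme4, against 12.4% of 32851 windows of all genes. Of these 6 genes 4 were higher and 1 lower in untreated than in treated control embryos, and of the other 34 genes with a window 27 were higher and 1 lower. CCAAT was in 34.9% of the windows, against 37.4% of all, and GGGCGG in 55.8% against 35.7%. CTTCCG was searched after the windows had been read and was in 24 windows (55.8%), against 16.9% of all. All 6 lid windows and 8 of 9 base windows held it, but 2 of 8 core alpha and 3 of 8 core beta windows. The proteasome windows also held more CpG (median observed over expected 0.734 against 0.384), and CTTCCG contains a CpG.

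A wider list of genes that serve the proteasome was read alongside, 28 of 35 sought. Without α-amanitin 13 were lower (46.4%) and 1 higher (3.57%) in the mutant, against 27.9% and 13.6% of the brighter genes. After quantile normalization 7 were lower and 9 higher, so the direction of this count depends on the scaling. Adrm1, a ubiquitin receptor of the base, read 7.82, 7.89 and 7.79 in control and 6.65, 6.23 and 6.23 in mutant embryos without α-amanitin, with no overlap. Its difference was -1.46 ± 0.16 (adjusted p = 8.88e-05 by limma), and those of Zfand5, a proteasome-binding zinc finger protein, Vcp, the segregase that extracts ubiquitinated proteins, and Uba6, a ubiquitin-activating enzyme, were -1.14, -1.05 and -0.79.

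With α-amanitin 4 genes of the wider list were higher (14.3%) and 2 lower (7.14%) in the mutant, near the 11.8% and 6.83% of the brighter genes. The direction turned on the treated mutant arrays: without the first 9 were higher and 0 lower, and without the second 3 were higher and 6 lower. After quantile normalization 7 were higher and 7 lower, and after cyclic loess 9 and 5. Pomp, the chaperone of the beta rings, read 6.89, 6.43 and 6.28 in control and 7.74 and 8.11 in mutant embryos (1.40 ± 0.20, adjusted p = 0.0015 by limma), and stayed called at 1.58 without the first and 1.21 without the second treated mutant array. Vcp (0.99), Txnl1 (0.91) and Usp14 (0.43) were the other genes higher in the treated mutant (adjusted p = 0.00355, 0.00211 and 0.0297 by limma). Their differences were 1.29, 1.09 and 0.57 without the first treated mutant array, and 0.69, 0.74 and 0.29 without the second. Nfe2l1 was lower in the treated mutant (-1.01 ± 0.19), as was Hsf1, the heat shock factor (-0.63 ± 0.12, adjusted p = 0.00799 and 0.00781 by limma). Both lost their calls without the first treated mutant array (-0.68 and -0.44) and kept them without the second (-1.35 and -0.82). In control embryos 13 of the 28 were higher (46.4%) and 7 lower without α-amanitin, against 32.1% and 22.6% of the brighter genes, and 10 and 12 after quantile normalization. Zfand2a, which binds the proteasome under arsenite stress, rose by 2.57, Vcp by 2.33 and Adrm1 by 2.32. In mutant embryos limma called 0 of the 28 for treatment, and 9 had an unadjusted p below 0.05. Leaving out the first treated mutant array gave 0 higher and 5 lower, and leaving out the second 1 higher and 0 lower. The interaction was negative for 11 (39.3%), with Pomp at -2.15 and Vcp at -2.05, and positive for 2 (7.14%), against 23.1% and 6.96% of the brighter genes. It was negative for 12 and positive for 1 without the first treated mutant array, and 11 and 4 without the second, and 8 and 8 after quantile normalization.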

How the data were processed

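RNA of 11 pools was amplified by whole-transcriptome amplification and hybridized to Affymetrix whole-transcript arrays, per the labels' protocols. The deposited values span a range that only log2 intensities have, and were made by the authors with affy in R 2.10.0, per the submitters' processing notes. Their background correction and normalization are not stated in the labels. Without a spike-in, values are relative to the RNA of the same array. One limma model (3.58.1, R 4.3.3) gave each of the 4 groups a mean over all 11 arrays, with 7 residual and 3.59 prior degrees of freedom and no filter on dim probe sets. The 2-sided p-values were corrected over 34760 probe sets (Benjamini-Hochberg). The script was tested on simulated data. The number of arrays limits the precision, and array correlations within a group were 0.966 to 0.984. All members could be named, and of the wider list up to 6 per comparison with the smallest adjusted p. The members and lists were chosen with earlier results of these data known. Alternatives were quantile normalization, median centring, cyclic loess, the brighter 50% of probe sets, a trend prior, array weights, a replicate block, only the groups compared, the mean of a gene's probe sets, a 2-fold minimum and leaving out each array.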

Additional observations from a re-analysis of the deposited data

Results flagged for a closer look

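The effect of α-amanitin (untreated minus treated) differed between mutant and control embryos for 36 of the 48 proteasome genes by limma's interaction term, in which the control difference is subtracted from the mutant difference. Over all genes 17.6% passed. The values are log2 differences, with limma's adjusted p between 6.19e-05 and 0.034. Among core alpha genes 7 passed: Psma1 -1.85, Psma2 -1.92, Psma3 -2.25, Psma4 -2.20, Psma5 -1.84, Psma6 -3.22 and Psma7 -1.99. Among core beta genes 8 passed: Psmb1 -2.00, Psmb2 -1.94, Psmb3 -1.89, Psmb4 -2.77, Psmb5 -3.22, Psmb6 -2.04, Psmb7 -2.78 and Psmb10 -0.85. Base genes that passed were 7: Psmc1 -1.74, Psmc2 -1.14, Psmc3 -0.79, Psmc4 -1.33, Psmc5 -1.74, Psmd2 -1.06 and Psmd4 -1.45. All 8 lid genes passed: Psmd3 -0.85, Psmd6 -1.52, Psmd7 -2.66, Psmd8 -0.68, Psmd11 -0.91, Psmd12 -2.24, Psmd13 -1.19 and Psmd14 -2.24. The 3 activators were Psme1 -0.66, Psme2 -1.49 and Psme3 0.58. Assembly factors were Psmd5 -0.83 and Psmg3 -1.84, and outside the particle Psmc3ip was at -1.08. Each value rests on 2 treated mutant arrays, with medians over the 48 genes of 5.76 and 6.55. Without the first of them 38 genes passed, all negative, and without the second 33, of which 32 were negative. The cause of the difference was not tested.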

How the results depend on the processing

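The count of proteasome genes past the threshold stayed within 1.5 times its reported value for treatment in control embryos and for the interaction under every alternative run. For the genotype without α-amanitin, 28 genes passed, and 15 with a 2-fold minimum. For the genotype with α-amanitin, 23 passed, 13 when only the groups compared were fitted, 14 with a 2-fold minimum and 14 without the second treated mutant array. For treatment in mutant embryos 5 passed, 3 after median centring, 2 with a trend prior, 1 with a 2-fold minimum, and 0 with array weights, with the replicate block or when only the groups compared were fitted (12, 14 and 12 at an unadjusted p below 0.05, all by limma). Leaving out 1 array at a time gave 22 to 33, 14 to 27, 38 to 42, 0 to 9 and 33 to 38 genes for genotype without and with α-amanitin, treatment in control and in mutant embryos, and interaction, and the 9 were all lower where the reported 5 were mostly higher. Where a setting left 1 treated mutant array, its spread was assumed to be that of the other groups. Of single genes, Psme4 (untreated genotype, 0.0402) and Psmd2 (treatment in control embryos, -0.0071) changed sign after quantile normalization. Calls were kept in every refit by 20 of 28, 10 of 23, 36 of 39, 0 of 5 and 30 of 36 genes in the order above, and 15, 10, 30, 0 and 28 of these also reached 2-fold. Over the wider list, 14 calls became 16 and 20 became 22 after quantile normalization with the balance of directions turned (untreated genotype, treatment in control embryos), as it was without the second treated mutant array for the treated genotype (6 calls became 9). Quantile normalization also moved the split over all probe sets: 2365 higher and 4752 lower became 3993 and 3629 for the untreated genotype, 1920 and 1224 became 2227 and 2322 with α-amanitin, 5527 and 3946 became 4717 and 6194 for treatment in control embryos, 885 and 353 became 1290 and 887 in mutant embryos, and 1205 and 3778 became 3323 and 2848 for the interaction (2191 and 3821 after cyclic loess). The causes were not tested. Same-numbered arrays were not treated as pairs, since not every correlation of their deviations was over 0.1. Among the groups of 3 arrays all 9 were above 0 (0.03 to 0.15, 3 over 0.1, against -0.12 to 0.04 for different numbers). With the group of 2 arrays all 6 were below 0 (-0.22 to -0.02). Deviations within a group of 2 have equal size and opposite sign, so each of the 6 recurs with its sign turned for the other number. Whether equal numbers mark arrays processed together was not tested. With the replicate number as a block 25, 21, 40, 0 and 35 genes passed. Psma8, Psmb8, Psmb11 and Psmg2 lay in the dimmer 50% of probe sets, where a decrease could hardly be seen. Psmb10, Psme2 and Psmc3ip came near that level on the treated arrays.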
